A study of Mus musculus with 12 samples.

Results

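The 10 genes described here encode microbe-sensing receptors and 2 proteins that relay their signals: the Toll-like receptors Tlr1, Tlr2, Tlr3, Tlr4, Tlr5 and Tlr9, the adaptor Myd88, the NOD receptors Nod1 and Nod2, and the kinase Ripk2. They were chosen by symbol and make up 10 of the 46517 genes counted. Of these 10, 9 passed the filter on low counts, and Tlr9 did not. RNA was sequenced from colonic intestinal epithelial cells of C57BL/6 mice aged 7 to 9 weeks. The 4 groups of 3 biological replicates were wild type (WT) untreated, WT given dextran sulfate sodium (DSS) for 48 h, Nfkb2-/- knockout (KO) untreated, and KO given DSS for 48 h. DSS is a polysaccharide that injures the colonic epithelium, and Nfkb2 encodes p100, the precursor of the NF-kB protein p52. The labels give no Cre or tissue-specific promoter for the knockout, so it is described only as Nfkb2-/-.

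Toll-like receptors are transmembrane proteins that bind conserved microbial molecules through leucine-rich repeats and recruit adaptors through a cytoplasmic TIR domain. Most of them use MYD88, which leads through IRAK kinases and TRAF6 to NF-kB, whereas TLR3 signals through TICAM1 (TRIF) and TLR4 uses both adaptors. NOD1 and NOD2 sense fragments of bacterial peptidoglycan in the cytosol and signal through the kinase RIPK2. In the intestine these receptors are expressed both by epithelial cells, which face the microbiota, and by leukocytes of the mucosa.

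Total counts ranged from 5595909 to 8117740 per library. Nfkb2 itself had 211 to 346 counts in the WT libraries and 87 to 143 in the KO libraries, a log2 difference of -1.31 in scaled level (exact permutation test, two-sided, p = 0.00216 over 924 arrangements, the smallest p they can give). The 7 epithelial markers (Epcam, Cdh1, Krt8, Krt18, Krt19, Vil1 and Krt20) were abundant in every library. Their summed level ran from 23471 to 31516 CPM (counts scaled to a common library total) in untreated WT, 24108 to 25154 in WT under DSS, 24069 to 25345 in untreated KO and 20713 to 22263 in DSS-treated KO. Krt20, a marker of differentiated surface cells, fell with DSS in both genotypes (log2 change -1.33 in WT and -1.34 in KO, edgeR adjusted p = 5.16e-06 and 2.09e-05). Between genotypes under DSS, 1 of the 7 was called, Vil1, lower in KO (log2 difference -0.55, edgeR adjusted p = 0.0386), against 3.11% of all genes tested. There 6 of the 7 estimates were negative, and that of Krt18 was 0.09 (edgeR adjusted p = 0.749). Between untreated genotypes 0 of the 7 were called, against 3.48% of all genes tested, and all 7 estimates were negative. An unadjusted edgeR p under 0.05 was found there for 3 of the 7 (Krt18 -0.24, Vil1 -0.42 and Krt20 -0.36), and for 1930 of the 12522 genes tested. The part of these differences in the results below was not tested. The 26 leukocyte markers summed to 38.6 to 99.7 CPM in untreated WT, 109 to 119 in DSS-treated WT, 140 to 165 in untreated KO and 175 to 242 in DSS-treated KO. Adgre1 and Flt3 had no count in untreated WT, and Flt3 and Siglech had none in WT under DSS. The sum of all 26 was higher in KO and under DSS, but the lists within it differed. The 4 neutrophil markers summed to 17.6 to 58.9 CPM in untreated WT, 30.7 to 37.7 in WT under DSS, 43.9 to 68.4 in untreated KO and 19.1 to 33.7 in DSS-treated KO. Most of their counts came from 1 gene, which also enters the sum of all 26. The sum of the 4 thus does not describe them as a set. Csf3r went the other way in KO, with 8, 6 and 3 counts untreated and 17, 18 and 34 under DSS. The 5 B cell and plasma cell markers summed to 3.09 to 10.1, 10.1 to 15.8, 1.54 to 4.71 and 4.30 to 5.82 CPM in the same order. The part of leukocyte transcripts in the results below was not tested. In bulk RNA, fewer cells of a type and less RNA per cell cannot be told apart. The labels number the WT libraries before the KO libraries, so library order and genotype cannot be told apart either. In each genotype the numbers go by turns to untreated and DSS samples.

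The order of the genes by level was compared per kilobase of exon, using counts scaled by TMM factors to CPM. Over the 12 samples, Tlr1 had the highest mean (42.8 CPM per kb), followed by Myd88 (28.7), Tlr3 (17.2), Tlr2 (14.04), Tlr4 (10.2), Ripk2 (8.42) and Nod1 (6.35). Nod2 (0.455), Tlr5 (0.358) and Tlr9 (0.0585) were far lower. Within every group the 3 samples of Tlr1 lay above those of Myd88, and those of Myd88 lay above those of the next gene. Below them, neighbours often overlapped: Ripk2 could not be separated from Nod1 in 3 of the 4 groups, nor Tlr5 from Nod2 in any. Tlr2 had rank 5 of 10 in untreated WT, rank 3 in untreated KO and rank 4 in both DSS groups.

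**Figure D1:**
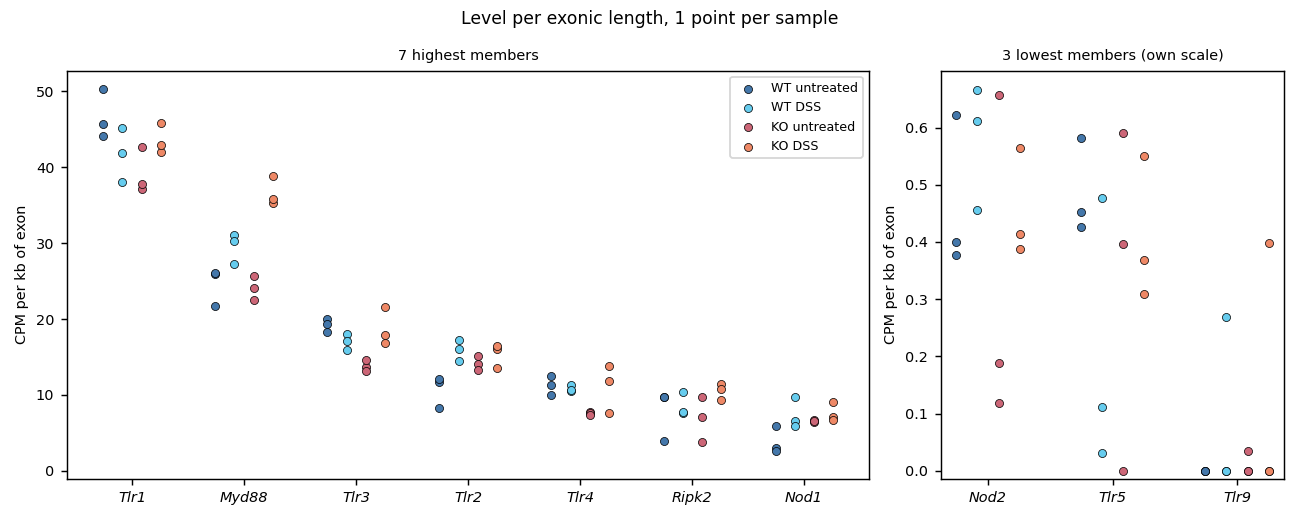
Level of each gene in CPM per kb of exon (linear y axis), with 1 point per sample and colours for the 4 groups; the 3 lowest genes are drawn on their own scale. Tlr1 and Myd88 stood highest in every group, and Nod2, Tlr5 and Tlr9 stayed below 1 CPM per kb in all 12 samples.

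Promoter sequence is shown for 3 of the 4 genes whose groups did not overlap in at least 2 of the comparisons below (the window of the other, Tlr3, overlaps annotated exons), with NF-kB-type or interferon-type motif matches in capitals. The sequences are from RefSeq (GRCm38.p6), whose promoter entries matched 8 of the 10 genes, all but Tlr4 and Ripk2. Each runs 5′ to 3′ on the strand of the gene, and bases that GENCODE M21 places in an exon are left out. They lie at chr9:119340042-119340268 (Myd88, minus strand), chr3:83841768-83841858 (Tlr2, minus strand) and chr6:54972613-54972862 (Nod1, minus strand). The Myd88 window lies inside the longer gene model of GENCODE M21.
Myd88: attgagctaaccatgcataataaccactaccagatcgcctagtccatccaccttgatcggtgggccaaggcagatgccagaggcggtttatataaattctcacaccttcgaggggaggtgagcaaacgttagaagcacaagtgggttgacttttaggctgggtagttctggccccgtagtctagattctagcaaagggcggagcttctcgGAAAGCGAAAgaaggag
Tlr2: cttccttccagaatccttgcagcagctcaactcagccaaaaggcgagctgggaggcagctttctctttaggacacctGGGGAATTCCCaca
Nod1: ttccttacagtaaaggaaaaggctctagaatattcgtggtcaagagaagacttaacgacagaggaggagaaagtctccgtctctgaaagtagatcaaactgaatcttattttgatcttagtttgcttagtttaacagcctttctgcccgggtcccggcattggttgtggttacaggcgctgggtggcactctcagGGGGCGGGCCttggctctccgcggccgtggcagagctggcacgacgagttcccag

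The capitals in Myd88 mark a match, on the reverse strand, to TTTC, any 2 bases, TTTC, the core of the interferon-stimulated response element, which begins at position -40 from the start. This core occurred on either strand in 2.98% of 32851 promoter windows of 250 bases, and among the 10 windows of the 8 matched genes it occurred only in that of Myd88. The capitals in Tlr2 cover overlapping matches to a loose NF-kB core (GGG, any 5 bases, CC) at positions -173 and -172, and in Nod1 a single match at position -55. Another Nod1 window, at chr6:54971662-54971911, is not shown and held 0 matches. This loose core occurred in 45.8% of all windows, so its presence is common. The windows of Tlr3, Tlr5 and Nod2 also held it. A match describes letters in the window and no binding was measured.

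Myd88, the adaptor shared by most Toll-like receptors, was the 1 member whose response to DSS was called by edgeR. The gene (ENSMUSG00000032508.8) lies at chr9:119335934-119341411 on the minus strand of GRCm38. Its level was 55.8, 66.8 and 67.1 CPM in untreated WT and 70.3, 80.1 and 77.9 in WT under DSS. In the knockout it was 66.2, 62.0 and 57.9 CPM untreated and 90.9, 100.2 and 92.4 under DSS. Every DSS sample lay above every untreated sample of its genotype, and the KO samples under DSS lay above all others.

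In KO, Myd88 rose 1.52-fold with DSS, from 62.03 ± 4.19 to 94.5 ± 5.02 CPM (SD, n = 3), a log2 change of 0.61 (SE 0.12, 95% interval 0.35 to 0.87, edgeR adjusted p = 0.0118). Here and below, p values are adjusted by the Benjamini-Hochberg method over all 12522 genes tested, and a change is called when the adjusted p is under 0.05. The call was lost when untreated KO sample 2 (adjusted p = 0.0543), untreated KO sample 3 (0.0713) or DSS-treated KO sample 2 (0.0635) was left out, with log2 changes of 0.56 to 0.60. In WT the change was 0.27 (SE 0.12, adjusted p = 0.272), from 63.2 ± 6.41 to 76.1 ± 5.16 CPM, and was not called. The KO change minus the WT change was 0.34 (95% interval -0.03 to 0.71, adjusted p = 0.533), so a difference in response between genotypes was not shown. Under DSS, KO exceeded WT by 0.31 (adjusted p = 0.229), and untreated the genotypes differed by -0.03 (adjusted p = 0.959). Exons of Myd88 overlap those of Acaa1a, a peroxisomal thiolase on the opposite strand, by 290 bases. The libraries carry no strand information, so reads there cannot be told apart, and 7.42% of the 50-base words of Myd88 were shared with Acaa1a. The level of Acaa1a itself was 172 ± 5.22 CPM in untreated KO and 184 ± 8.42 under DSS (log2 change 0.10, adjusted p = 0.729).

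Ripk2, the kinase downstream of the NOD receptors (ENSMUSG00000041135.14, chr4:16122733-16163647, minus strand), varied widely among samples of 1 group. Untreated WT had 11.1, 27.2 and 27.5 CPM and untreated KO 27.5, 10.5 and 19.8, while WT under DSS had 21.4, 21.7 and 29.4 and KO under DSS 32.2, 26.1 and 30.2. Only the KO samples under DSS kept together at the upper end. The largest difference, DSS in KO, was 0.62 (SE 0.34, 95% interval -0.12 to 1.35, adjusted p = 0.427), and no comparison of Ripk2 was called.

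**Figure D2:**
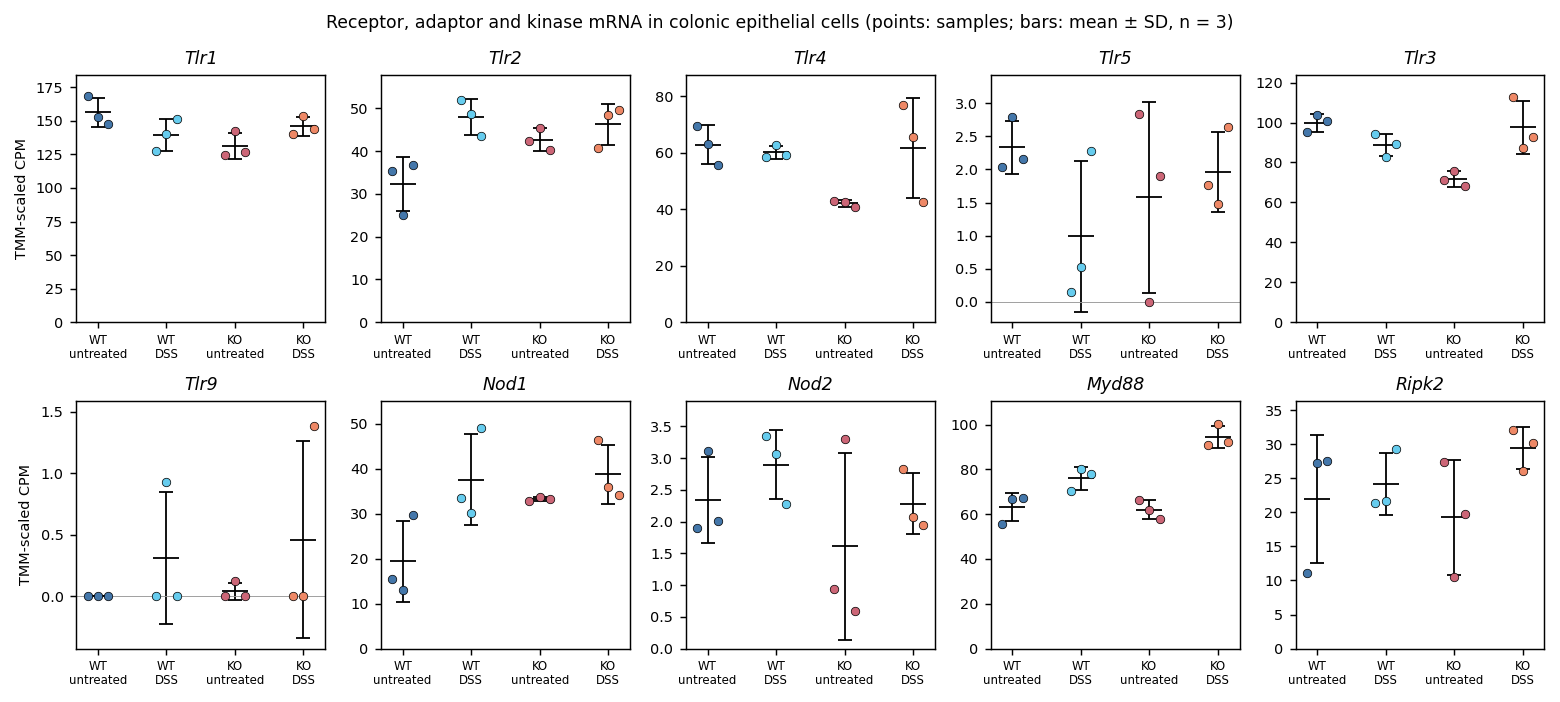
TMM-scaled CPM of the 10 genes by group, with 1 panel per gene, points for samples and bars for the mean ± SD (n = 3); the y axes are linear and differ between panels. Myd88 is highest in the 3 KO samples under DSS (90.9 to 100.2 CPM) and Tlr3 lowest in the 3 untreated KO samples (68.2 to 75.9 CPM).

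Among the cell-surface receptors, TLR2 pairs with TLR1 to bind triacylated bacterial lipoproteins. Tlr1 (ENSMUSG00000044827.9, chr5:64924679-64933563, minus strand) was the most abundant receptor per kilobase in every group. Its samples had 168, 153 and 148 CPM in untreated WT, 128, 140 and 151 in DSS-treated WT, 124, 143 and 127 in untreated KO, and 140, 153 and 144 in DSS-treated KO. Untreated KO lay below untreated WT without overlap, by -0.25 (SE 0.11, adjusted p = 0.259), and no comparison was called. Of its 50-base words, 15.4% occurred in other genes, mostly in its near copy Tlr6, and how reads matching both were counted is not given in the sources used here.

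Tlr2 (ENSMUSG00000027995.10, chr3:83836272-83841767, minus strand) had 35.4, 25.1 and 36.6 CPM in untreated WT. All other groups were higher: 51.9, 48.5 and 43.5 in WT under DSS, 42.4, 45.4 and 40.2 in untreated KO, and 40.7, 48.5 and 49.5 in KO under DSS. Untreated WT thus stood apart from each of them, while the remaining 9 samples overlapped. The DSS difference in WT was 0.57 (SE 0.17, 95% interval 0.21 to 0.92), with an adjusted p of 0.0617 that missed the threshold. With 1 sample left out it ranged from 0.41 to 0.66 with edgeR adjusted p of 0.0422 to 0.216, and was called in 1 of 6 cases, without untreated WT sample 3. DESeq2 called it with all samples (adjusted p = 0.0233). Between untreated genotypes the difference was 0.40 (adjusted p = 0.259), and in KO the DSS difference was 0.12 (adjusted p = 0.819). The difference between the DSS changes was -0.45 (95% interval -0.95 to 0.05, adjusted p = 0.538).

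TLR4 binds bacterial lipopolysaccharide together with MD-2 and CD14. Tlr4 (ENSMUSG00000039005.12, chr4:66827584-66930284, plus strand) had 69.5, 63.0 and 55.8 CPM in untreated WT, 58.5, 62.7 and 59.2 in WT under DSS, and 42.8, 42.6 and 40.6 in untreated KO. The KO samples under DSS were spread widely, at 76.9, 65.5 and 42.4 CPM. Untreated KO lay below both WT groups without overlap, and 1 DSS-treated KO sample lay within its range. The untreated genotype difference was -0.58 (SE 0.18, 95% interval -0.97 to -0.19, adjusted p = 0.107), and DESeq2 gave an adjusted p of 0.0390. The DSS difference in KO was 0.55 (SE 0.18, adjusted p = 0.127). It was 0.36 without DSS-treated KO sample 1 (edgeR adjusted p = 0.407) and 0.76 without DSS-treated KO sample 3 (adjusted p = 0.0180). In WT the DSS difference was -0.06 (95% interval -0.45 to 0.33). The difference between the DSS changes was 0.61 (unadjusted p = 0.0315, adjusted p = 0.398, edgeR).

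TLR5, the receptor for bacterial flagellin, was measured at the edge of detection. Tlr5 (ENSMUSG00000079164.7, chr1:182954788-182976044, plus strand) had 14, 17 and 14 counts in untreated WT, 1, 4 and 14 in DSS-treated WT, 21, 0 and 16 in untreated KO, and 10, 10 and 19 in DSS-treated KO. A floor of 3 counts corresponded to 0.356 to 0.530 CPM depending on the library, and 2 libraries were under it. Samples of 1 group spanned nearly the whole range of the gene. The DSS difference in WT was -1.25 with a 95% interval of -3.33 to 0.83, so a decrease of several fold, or an increase within that interval, could not be resolved at this depth.

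The endosomal receptor TLR3 recognises double-stranded RNA, and its transcript showed a called difference between genotypes. Tlr3 (ENSMUSG00000031639.10) lies at chr8:45395665-45411080 on the minus strand. It had 95.03, 104 and 101 CPM in untreated WT and 71.1, 75.9 and 68.2 in untreated KO. Under DSS the samples had 94.2, 82.9 and 89.4 CPM in WT and 113, 87.5 and 93.0 in KO. Untreated KO stood below every sample of the other 3 groups.

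Untreated KO was 1.39-fold lower than untreated WT in Tlr3, at 71.7 ± 3.90 against 99.9 ± 4.55 CPM (SD, n = 3), a log2 difference of -0.48 (SE 0.12, 95% interval -0.74 to -0.22, edgeR adjusted p = 0.0438). This p lay close to the threshold: leaving out any 1 of the 6 samples lost the call, with log2 differences of -0.52 to -0.44 and edgeR adjusted p of 0.0561 to 0.180, while DESeq2 kept it (adjusted p = 0.00458). The DSS difference in KO was 0.44 (SE 0.12, edgeR adjusted p = 0.0577), with no overlap between the groups, and DESeq2 called it (adjusted p = 0.0119). In WT it was -0.17 (SE 0.12, adjusted p = 0.546), with the DSS samples below the untreated samples. The KO change minus the WT change was 0.61 (SE 0.17, 95% interval 0.25 to 0.98, unadjusted p = 0.00286, edgeR adjusted p = 0.111), and DESeq2 gave an adjusted p of 0.0226. Under DSS the genotypes overlapped (0.14, adjusted p = 0.685). Tlr3 exons overlap the antisense gene Gm45542 by 381 bases, which is not analysed here, and 5.30% of the 50-base words of Tlr3 were shared with it. The 26 leukocyte markers summed to 140 to 165 CPM in untreated KO and 38.6 to 99.7 in untreated WT. Of these sums the 4 neutrophil markers, mostly 1 gene, gave 43.9 to 68.4 and 17.6 to 58.9 CPM. The part of leukocyte transcripts in the levels of Tlr3 was not tested.

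TLR9 senses unmethylated CpG DNA in endosomes. Tlr9 (ENSMUSG00000045322.10, chr9:106222598-106226883, plus strand) was at 0 in 9 of 12 libraries and had 7 counts in WT under DSS sample 2, 10 in KO under DSS sample 3 and 1 in untreated KO sample 2. Only 2 of 12 libraries reached 3 counts. It was not tested, and no level or difference was detectable at this depth.

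NOD1, the cytosolic receptor for peptidoglycan carrying meso-diaminopimelic acid, showed the largest estimated difference among the 7 members other than Tlr5, Tlr9 and Nod2. Nod1 (ENSMUSG00000038058.13, chr6:54923949-54972612, minus strand) had 15.4, 13.1 and 29.7 CPM in untreated WT and 33.4, 30.1 and 49.1 in WT under DSS. The untreated KO samples were close together, at 32.8, 33.8 and 33.3 CPM, and KO under DSS had 46.3, 35.9 and 34.2. As with Tlr2, untreated WT lay below every other sample, and untreated WT sample 3 was well above its companions.

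Nod1 averaged 19.4 ± 8.96 CPM in untreated WT and 37.5 ± 10.1 in WT under DSS (SD, n = 3), a log2 difference of 0.95 (SE 0.27, 95% interval 0.36 to 1.54, edgeR adjusted p = 0.0568). This was not called. With 1 sample left out it ranged from 0.71 (without DSS-treated WT sample 3, edgeR adjusted p = 0.252) to 1.39 (without untreated WT sample 3, adjusted p = 0.00199), the 1 omission that gave a call. DESeq2 called it with all samples (adjusted p = 0.0131). Untreated KO exceeded untreated WT by 0.78 (SE 0.27, adjusted p = 0.158), and by 0.56 (without untreated WT sample 2, edgeR adjusted p = 0.415) to 1.22 (without untreated WT sample 3, adjusted p = 0.00818) with 1 sample left out. In KO the DSS difference was 0.22 (95% interval -0.35 to 0.79, adjusted p = 0.781). The difference between the DSS changes was -0.73 (95% interval -1.55 to 0.09, adjusted p = 0.540). The sum of the 26 leukocyte markers was also lowest in untreated WT. The median sums of the neutrophil markers and of the B cell and plasma cell markers were not lowest there. The part of leukocyte transcripts in the levels of Nod1 and Tlr2 was not tested.

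NOD2 senses muramyl dipeptide, and its transcript was sparse. Nod2 (ENSMUSG00000055994.14, chr8:88647315-88688474, plus strand) had 13, 19 and 13 counts in untreated WT, 22, 23 and 14 in DSS-treated WT, 7, 27 and 5 in untreated KO, and 16, 14 and 14 in DSS-treated KO. The groups overlapped in every comparison and none was called. The DSS difference in WT had a 95% interval of -0.96 to 1.58, and the untreated genotype difference one of -1.82 to 0.77.

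Set side by side, few members were called in any comparison, as was the case for all genes tested. With DSS in WT, 0 of 9 tested members were called by edgeR (3 at an unadjusted p under 0.05, and 2 by DESeq2), against 6.3% of all genes tested. With DSS in KO, 1 of 9 was called, Myd88, against 3.92% of all genes in either direction and 1.88% higher. All 9 estimates were positive there, with a median of 0.44 against 0.02 over all genes tested. Between untreated genotypes 1 of 9 was called, Tlr3, against 3.48% of all genes and 1.76% lower, and the members' median was -0.25 against 0.00 for all genes. Under DSS, 0 of 9 differed between genotypes by edgeR (1 at an unadjusted p under 0.05, and 0 by DESeq2), against 3.11%. The interaction was called in 0 of 9 by edgeR (2 at an unadjusted p under 0.05, Tlr3 and Tlr4, and 1 by DESeq2, Tlr3), against 1.7%. These percentages are shares of edgeR calls. An unadjusted edgeR p under 0.05 was found for 2204 of the 12522 genes with DSS in WT. It was found for 1829 between genotypes under DSS and 1328 in the interaction. The comparisons share groups, so they are not independent of each other.

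Groups of 3 that did not overlap were more frequent than calls, both for the members and for all genes tested. They were found for 4 of 9 members with DSS in WT (Tlr2, Myd88 and Nod1 higher, Tlr3 lower), where 20.6% of all genes tested did the same. With DSS in KO the count was 3 of 9 (Tlr3, Myd88 and Nod1, all higher), against 24.3%. Between untreated genotypes it was 5 of 9 (Tlr2 and Nod1 higher in KO, Tlr1, Tlr3 and Tlr4 lower), against 19.3%. Under DSS it was 1 of 9 (Myd88, higher in KO), against 22.3%.

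**Figure D3:**
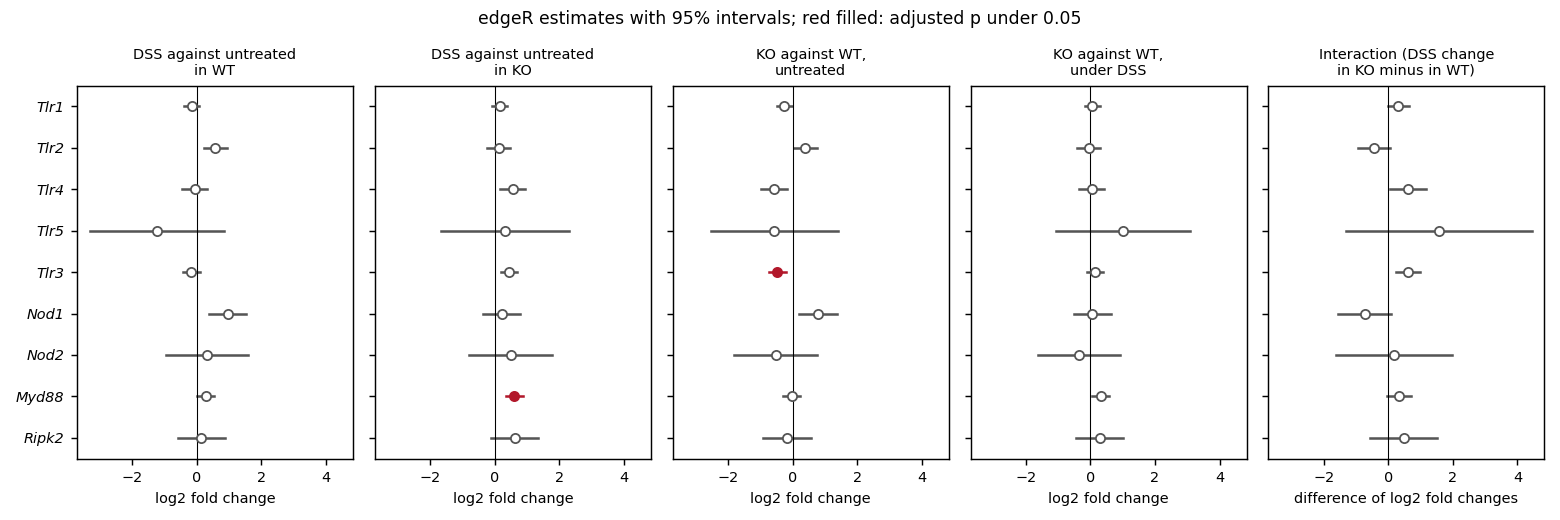
Fold changes of the 9 tested genes on a log2 axis in the 5 comparisons, as edgeR estimates with 95% intervals; filled red points are the called differences. These are Myd88 with DSS in KO (0.61) and Tlr3 between untreated genotypes (-0.48), and the intervals of Tlr5 and Nod2 are wider than those of the other 7 genes in each comparison.

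Other genes of these pathways were taken from a list of 80, of which 66 were tested. The list was written with earlier results of these data known, so its counts beside the shares of all genes are a description and no test. With DSS in WT, edgeR called 9 higher and 1 lower, and with DSS in KO, 6 higher and 0 lower (1 lower at an unadjusted p under 0.05, and 0 lower by DESeq2), where 6.3% and 3.92% of all genes tested were called. With DSS in KO, 1987 of the 12522 genes tested had an unadjusted edgeR p under 0.05 in either direction. Between untreated genotypes 2 were higher and 1 lower in KO, under DSS 1 was higher and 2 lower, and in the interaction 1 was higher and 2 lower, against 3.48%, 3.11% and 1.7% of all genes. Among the other Toll-like receptors, Tlr8 and Tlr11 had no count, Tlr7, Tlr12 and Tlr13 did not pass the filter, and Tlr6 had 1 count over the 3 untreated WT libraries, 31 in DSS-treated WT, 52 in untreated KO and 19 in DSS-treated KO, with no call by edgeR. DESeq2 called Tlr6 higher with DSS in WT and in untreated KO.

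Cd14 and Lbp, whose products present lipopolysaccharide to TLR4, both rose with DSS in WT, by more than 1 on the log2 scale. Cd14 had 79.0, 70.4 and 65.2 CPM in untreated WT and 173, 188 and 166 under DSS. In KO it had 110.0, 119 and 115 untreated and 136, 139 and 134 under DSS, so the groups formed 4 separate levels. Cd14 rose with DSS in WT by 1.30 on the log2 scale (SE 0.11, edgeR adjusted p = 2.49e-06), and in KO the difference was 0.25 (adjusted p = 0.255). Untreated KO exceeded untreated WT by 0.68 (edgeR adjusted p = 0.00216), and the DSS change in KO was smaller than that in WT by an interaction of -1.05 (SE 0.15, edgeR adjusted p = 0.00119). Cd14 is also a marker of monocytes. The 6 macrophage and monocyte markers summed to 3.94 to 6.03 CPM in untreated WT, 17.5 to 24.8 in WT under DSS, 13.1 to 13.3 in untreated KO and 38.4 to 55.01 in KO under DSS. The part of monocytes in the levels of Cd14 was not tested.

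Lbp encodes the protein that carries lipopolysaccharide to CD14. It averaged 4.64 ± 2.57 CPM in untreated WT and 68.9 ± 10.4 under DSS, and 8.69 ± 0.616 in untreated KO and 24.7 ± 6.12 under DSS (SD, n = 3). Both genotypes rose, by 3.88 in WT (edgeR adjusted p = 3.51e-06) and 1.51 in KO (adjusted p = 0.0115) on the log2 scale. The KO change was the smaller, with an interaction of -2.38 (SE 0.44, edgeR adjusted p = 0.00967), and under DSS the KO level was lower by -1.48 (adjusted p = 0.0106). The KO change lost its call without untreated KO sample 1 or 3 or DSS-treated KO sample 3 (edgeR adjusted p = 0.0526, 0.0585 and 0.0592). The genotype difference under DSS lost it without any of samples 1 or 2 of either group (0.0510 to 0.0702). Unc93b1, which delivers the endosomal receptors to their compartment, rose with DSS in WT by 0.37 (edgeR adjusted p = 0.0487) and lost the call without any 1 of the 6 samples (0.0652 to 0.205).

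**Figure D4:**
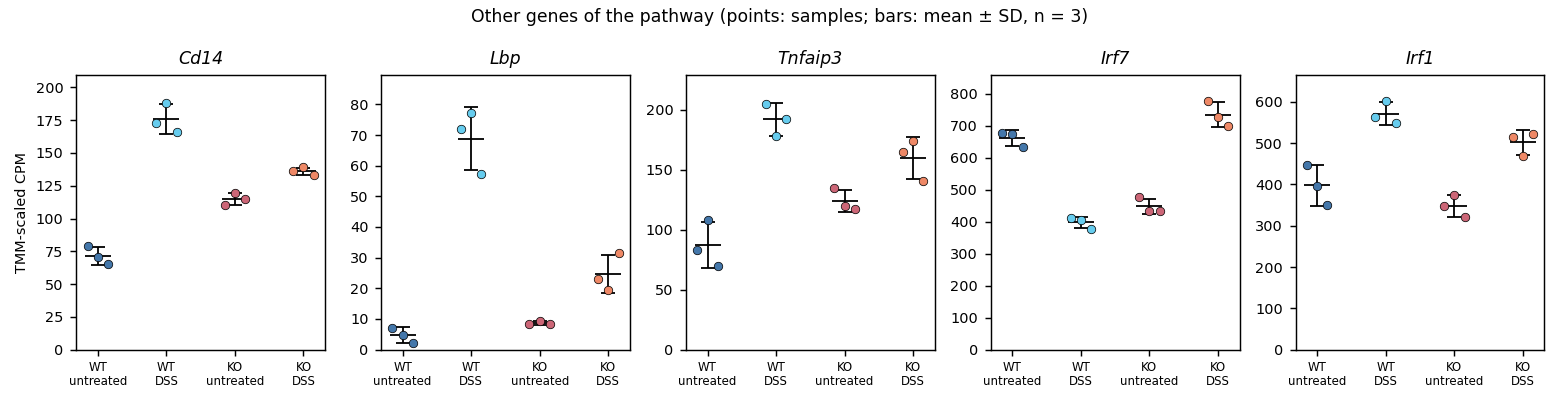
TMM-scaled CPM of other genes of the pathways by group, with points for samples and bars for the mean ± SD (n = 3); y axes are linear and differ between panels. Cd14 and Lbp rise furthest in WT under DSS (to 176 and 68.9 CPM on average), and Irf7 falls with DSS in WT and rises with it in KO.

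Downstream of the receptors, Irf7, which drives type I interferon genes after endosomal receptor signalling, fell with DSS in WT from 661 ± 23.8 to 397 ± 17.9 CPM (log2 change -0.73, edgeR adjusted p = 5.31e-05). In KO it rose from 447 ± 24.5 to 734 ± 38.8 CPM (SD, n = 3; log2 change 0.71, edgeR adjusted p = 0.000226). The interaction was 1.45 (SE 0.12, edgeR adjusted p = 1.95e-05). Untreated KO was lower than untreated WT by -0.56 (edgeR adjusted p = 0.0014), and KO under DSS was higher than WT by 0.88 (adjusted p = 2.89e-05). Irf1 rose in both genotypes, by 0.52 in WT (edgeR adjusted p = 0.0058) and 0.53 in KO (adjusted p = 0.00981), with an interaction of 0.01 (95% interval -0.31 to 0.32). In KO the Irf1 call was lost without untreated sample 3 (edgeR adjusted p = 0.0634). Irf5 had 2 counts over the 3 untreated WT libraries, 44 in WT under DSS and 42 in untreated KO, both called higher. The ratios were 21.1 (95% counting interval 5.52 to 180) and 16.97 (4.42 to 145), and cover counting error only. These Irf5 calls were lost without untreated WT sample 1 or 2 and without several others (edgeR adjusted p of 0.0544 to 0.0784 for DSS in WT and 0.0550 to 0.200 between genotypes).

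Of the 11 inhibitors 10 were tested, and edgeR called 1, Tnfaip3, with DSS in WT, where 6.3% of all genes were called. Tnfaip3 encodes the ubiquitin-editing enzyme A20, which dampens NF-kB signalling downstream of both receptor families. It rose from 86.8 ± 19.2 to 192 ± 13.6 CPM (SD, n = 3) in WT, by 1.14 on the log2 scale (edgeR adjusted p = 0.000174). In KO it had 124 ± 9.10 CPM untreated and 159 ± 17.4 under DSS, a difference of 0.36 (adjusted p = 0.218), and the interaction was -0.78 (edgeR adjusted p = 0.0823). DESeq2 called Tnfaip3 also between untreated genotypes and in the interaction.

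Of the 23 kinases and ubiquitin ligases, edgeR called 1 with DSS in each genotype, against 6.3% of all genes in WT and 3.92% in KO. DESeq2 called 2 in WT (Birc3 higher and Xiap lower) and 1 in KO (Rnf31). In the other 3 comparisons edgeR called 0 (3 at an unadjusted p under 0.05 between untreated genotypes, 3 under DSS and 1 in the interaction), and DESeq2 called 0, 1 (Ikbkg) and 0. Over all 12522 genes tested, 1930, 1829 and 1328 had an unadjusted edgeR p under 0.05 in these 3 comparisons. With DSS in KO, Rnf31, the catalytic subunit of the linear ubiquitin ligase, rose from 91.8 ± 5.41 to 132 ± 5.77 CPM (SD, n = 3; log2 change 0.52, edgeR adjusted p = 0.0148). The call was lost without untreated sample 2 or 3 or DSS-treated sample 1 or 2 (adjusted p = 0.0580 to 0.0890). In WT the called gene was Birc3, a ubiquitin ligase, with a log2 change of 0.61 (edgeR adjusted p = 0.0202), lost without untreated WT sample 1 or any DSS-treated sample (0.0613 to 0.0725). The 3 other adaptors tested, Tirap, Ticam1 and Ticam2, gave 0 calls with edgeR or DESeq2 in the 5 comparisons, and edgeR gave 1 unadjusted p under 0.05, under DSS.

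Among the NLR and inflammasome genes, 14 of 16 were tested. Il18, an epithelial cytokine matured by caspase-1, and Ciita, the master regulator of MHC class II genes, rose with DSS in WT (log2 changes 0.86 and 0.79, edgeR adjusted p = 0.0458 and 0.0190). Il18 lost the call without untreated WT sample 2 or any DSS-treated sample (0.0747 to 0.145), and Ciita without untreated sample 2 or DSS-treated sample 1 or 3 (0.0564 to 0.107). Ciita also rose in KO (0.74, edgeR adjusted p = 0.0373), as did Il1b, a cytokine made mostly by myeloid cells, with 0.808, 3.05 and 1.90 CPM untreated and 10.96, 6.23 and 18.0 under DSS (log2 change 2.59, adjusted p = 0.0327). With the replicate number as a block both calls in KO were lost (Ciita 0.72, edgeR adjusted p = 0.0581; Il1b 2.44, adjusted p = 0.0761), and each was lost without 5 of the 6 samples in turn (Ciita 0.0682 to 0.151, Il1b 0.0542 to 0.151; the exceptions are untreated sample 2 for Ciita and DSS-treated sample 2 for Il1b). Nlrc4, the adaptor of the flagellin-sensing NAIP inflammasome, was lower in KO than in WT under DSS, at 45.6 ± 2.91 against 67.03 ± 1.62 CPM (log2 difference -0.56, edgeR adjusted p = 0.0483), and lost the call without any 1 of the 6 samples (0.108 to 0.172).

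The genes whose log2 CPM followed the 2 called members most closely over the 12 samples were found among 8861 genes whose mean log2 CPM was 3 or more. For Myd88 they were Samhd1 (Pearson r = 0.955), a dNTP hydrolase, and the interferon-inducible GTPase genes Gbp7 (0.938) and Igtp (0.932). The estimates for DSS in KO were 0.52, 1.49 and 1.11 on the log2 scale for these 3 genes, beside 0.61 for Myd88, and those for DSS in WT were 0.24, 0.69 and 0.76, beside 0.27. For Tlr3 the closest were Oplah (r = 0.898), 9930111J21Rik1 (0.890) and Gdpgp1 (0.887). Their estimates for untreated KO against WT were -0.49, -0.99 and -0.62, beside -0.48 for Tlr3. These correlations describe 12 libraries that share 4 groups, and the genes were selected for their likeness, so their values are a description with no test.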

How the data were processed

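The 10 genes, the pathway lists and the marker lists were chosen with earlier results of these data known. Per the labels' protocols, cells were detached with EDTA (typically about 90% CD45.2-negative and EpCAM-positive), RNA integrity numbers were 7.2 to 9.2, and libraries were made from 2 ng RNA by SMART-seq2, without molecular identifiers or strand information. Per the submitters' processing notes, STAR 2.5.2b, featureCounts 1.5.0 and GRCm38/mm10 were used. The annotation release, strand setting and handling of multiply mapping reads are not given in the sources used here. Each deposited file holds raw read counts per gene as integers, and the values show no normalization by the authors.

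Of 46517 IDs, 46005 matched GENCODE M21 (GRCm38) without the version. Counts were tested with edgeR 4.0.16 (R 4.3.3): filterByExpr kept 12522 genes holding 99.8% of counts, TMM factors scaled the libraries, 1 coefficient per group was fitted over 12 samples, and 5 contrasts were tested by the two-sided quasi-likelihood F test with Benjamini-Hochberg adjustment over all genes tested. A gene was called at an adjusted p under 0.05. Fold changes are log2. The interaction is the DSS change in KO minus that in WT. CPM values are TMM-scaled, and log2 CPM used a prior count of 2. PCR copies are not independent molecules, so floors of 3 counts and counting intervals cover counting error alone. Alternatives were DESeq2 1.42.0, DESeq2-type (RLE) and upper-quartile scaling, other count filters, a fit on only the samples compared, a replicate block, and leaving out each sample in turn.

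The series text calls the samples biological replicates, without saying whether each is a single mouse. Within groups no pair of libraries agreed within sampling noise (chi-square per degree of freedom 6.88 to 29.6). PCR copies can add to this spread, so these values cannot tell whether the samples are separate mice. Any pairing comes from the titles, where samples carry the numbers 1 to 3 within a group, and from the library numbers, which are consecutive for untreated and DSS samples of the same number and genotype (8519 to 8524 in WT, 8525 to 8530 in KO). No label says that either number marks a shared batch or day. The criterion for pairing was a correlation above 0.1, in every pair, between deviations of same-numbered samples from their group means. Only DSS in KO met it (r = 0.204, 0.106 and 0.127). The main values for DSS in KO, as for the other comparisons, still come from the fit without a block. The replicate block, with the same numbers 1 to 3 for both genotypes, was run as an alternative. All 10 members are named. Of the pathway lists, up to 5 called genes per comparison with the smallest adjusted p are named. Birc3, Il18, Ciita and Unc93b1 were named after their values were seen. So were Krt20, Vil1, Krt18, Csf3r, Xiap, Acaa1a, Tlr6, Ikbkg, Tirap, Ticam1 and Ticam2. Motifs were searched on both strands in 250 bases upstream of each RefSeq start. The level of 1 gene of the marker lists is not reported here.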

Additional observations from a re-analysis of the deposited data

Results flagged for a closer look

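The change with DSS differed between WT and KO for 3 genes of the pathway lists, by the interaction term of the edgeR fit over all 12 samples. It was smaller in KO for Cd14 (difference of log2 changes -1.05, adjusted p = 0.00119) and for Lbp (-2.38, adjusted p = 0.00967), and opposite in direction for Irf7 (1.45, adjusted p = 1.95e-05). None of the 9 tested members met this threshold by edgeR, and DESeq2 called 1, Tlr3 (adjusted p = 0.0226). By edgeR, 2 of the 9 members had an unadjusted p under 0.05, as did 1328 of the 12522 genes tested.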

How the results depend on the processing

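With 3 samples per group, most member results near the threshold depended on the settings. Members called with DSS in WT numbered 0, but 1 with upper-quartile scaling, 1 with all genes having at least 1 count, 1 with the replicate block (Nod1 in each of these), 2 with DESeq2 (Tlr2 and Nod1) and 0 to 2 when 1 sample was left out. With DSS in KO the count of 1 became 2 with DESeq2 and 0 to 2 when 1 sample was left out. Between untreated genotypes the count of 1 became 0 with upper-quartile scaling, 0 with the replicate block, 0 with only the samples compared, 2 with DESeq2 and 0 to 1 when 1 sample was left out. With all genes having at least 1 count it stayed at 1, but the gene was Nod1 (adjusted p = 0.0217) and not Tlr3 (0.101). Under DSS it stayed at 0 when 1 sample was left out (0 to 0), and for the interaction it was 1 with DESeq2 and 0 to 0 when 1 sample was left out.

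Counts over all genes moved too. With DSS in WT, 789 genes were called, 467 with only the samples compared and 483 to 958 when 1 sample was left out. With DSS in KO the 491 became 776 with all genes having at least 1 count, 800 with DESeq2 and 235 to 302 when 1 sample was left out. Between untreated genotypes the 436 became 703, 790, 195 with only the samples compared, and 212 to 725. Under DSS the 390 became 642, 662 and 160 to 231, and the interaction's 213 became 356, 368 and 152 to 350, in the same order. When 1 sample was left out, fewer samples entered the fit. The cause of the other shifts was not tested.

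With the replicate block, 695, 409, 345, 290 and 186 genes were called in the 5 comparisons. Apart from DSS in KO, the numbers did not meet the criterion for pairing: the mean correlation of deviations of same-numbered samples was 0.0872 for DSS in WT (0.0138, 0.120 and 0.128, in samples with consecutive library numbers), -0.134 between untreated genotypes and -0.0462 under DSS. The block fitted the same replicate effects in both genotypes, so a pairing within KO alone was not fitted. With DSS in KO, which met the criterion, this shared block changed no call other than those of Il1b and Ciita among the members and pathway genes named. Elsewhere it changed the member calls of Nod1 with DSS in WT (0.97, adjusted p = 0.0477) and of Tlr3 between untreated genotypes (-0.48, adjusted p = 0.0720).

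No called result of a member or pathway gene reversed its direction in any alternative run. Of 339 alternatives for the 25 pathway calls, 67 lost the call. Of 45 member comparisons, 36 were called nowhere, and 11 of these changed sign in 23 of their 507 alternatives. Tlr5, Tlr9 and Nod2 are limited by depth, with at most 27 counts in a library.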
